A study of Mus musculus with 9 samples.

Results

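The constitutive proteasome is described here through the genes of its subunits in mouse thymus and thymus tumors. The members are all probe sets whose single gene symbol in the platform gene table is Psma, Psmb, Psmc or Psmd followed by digits only, with Psmb8, Psmb9, Psmb10 and Psmb11 left out. The rule uses names and no measured values. It found 35 genes with 73 probe sets, among 18193 symbols with 34945 probe sets that carry a single symbol. After a filter on low signal, 34 of the 35 genes were tested among 11671 genes. The exception was Psma8, the germ-cell alpha subunit, whose 1 probe set lay between 3 and 9 in normal thymus, between 1 and 5 in tumor and between 1 and 6 in resistant tumor.

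Gene expression was measured on Affymetrix Mouse430_2 arrays, with total RNA of normal mouse thymus on 3 arrays, of thymus tumor on 3 arrays and of thymus tumor called XIST resistant on 3 arrays. XIST is a long noncoding RNA, known for silencing the X chromosome it is transcribed from. The labels give only these names, and the sources used here do not give strain, genotype, transgene, age, sex or treatment. Nothing in them ties each array to an animal of its own. The spread that a p-value is measured against may therefore be technical.

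The proteasome is the barrel-shaped protease that breaks down proteins tagged with ubiquitin. Its core particle stacks rings of alpha subunits (Psma), which form the gate, around rings of beta subunits (Psmb), of which Psmb5, Psmb6 and Psmb7 carry the proteolytic sites. A regulatory particle caps the core. Its base holds a ring of ATPases (Psmc) that unfold the substrate, and its lid (most Psmd genes) takes off the ubiquitin chain. In thymus, cytokine-induced and thymus-specific catalytic subunits can replace the constitutive ones and change the peptides presented to developing T cells. Transcription factors of the Nfe2l1 type are known to raise subunit genes together through antioxidant response elements in their promoters.

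To set the members' promoters beside their levels, the 250 bases upstream of each start, as RefSeq's promoter sequences of assembly GRCm38.p6 place it, were searched for the 28 of 35 members they hold. The core of the antioxidant response element, TGACNNNGC on either strand, was found in 5 of these 28 (17.9%), namely Psmb5, Psmb6, Psmc6, Psmd9 and Psmd12, against 11.5% of 27025 genes. In Psmb6 the match lies inside the gene by RefSeq's gene table, which starts that gene earlier. The CCAAT box, searched on both strands as CCAAT, was found in 11 of 28 (39.3%), against 37.5% of the same genes. Shown first, 5′ to 3′, are the 60 bases upstream of the start of Psma5 and Psmd1, members called higher in tumor whose entries do not hold this element. They are followed by Psmb5 and Psmd9, which hold the element and were chosen after their values were seen, with its letters in capitals. These were not called without a block, and both were called higher in both tumor groups with the sets of arrays described below as a block. Of the other members with the element, that block called Psmb6 higher in both tumor groups and Psmd12 higher in resistant tumor only. Psmc6 was called in neither, with changes without a block of -0.21 in tumor and -0.19 in resistant tumor. The strands are plus for Psma5, Psmd1 and Psmd9 and minus for Psmb5.
Psma5 (chr3:108256866-108256925): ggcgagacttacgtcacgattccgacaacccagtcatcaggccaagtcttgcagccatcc
Psmd1 (chr1:86064559-86064618): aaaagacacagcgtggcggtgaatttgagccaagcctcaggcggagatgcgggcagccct
Psmb5 (chr14:54617996-54618055): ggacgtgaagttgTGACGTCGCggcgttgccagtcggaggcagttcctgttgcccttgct
Psmd9 (chr5:123228130-123228189): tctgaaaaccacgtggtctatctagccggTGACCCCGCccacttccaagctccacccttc
A match of letters is a description of the sequence and not evidence of binding.

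The 9 arrays fell into sets that the group labels do not explain. In 4 arrays (resistant tumor 1 and 2, tumor 1 and normal thymus 1) the poly-A control probe sets had a mean signal of 2.01 to 2.95, and in the other 5 arrays 141 to 237. Array medians were 23.6 to 25.8 in the former and 13.9 to 17.8 in the latter. Members moved with this split. Averaged over the groups, the log2 signal was higher on arrays with control signal than on those without it by a median of 0.21 over the 34 members, against 0.040 over all genes tested. In all 3 groups 20 of 34 members were higher with control signal, and 7 were lower in all 3. Of all 11671 genes tested, 4016 were higher in all 3 groups and 3125 lower. Each set held all 3 groups, so counts are given also with the set as a block. The Actb 3′ to 5′ ratio, a sign of RNA integrity, was 1.63 to 1.91 in normal thymus, 1.91 to 3.16 in tumor (highest in tumor 2) and 1.96 to 2.64 in resistant tumor (highest in resistant tumor 3). Every resistant tumor array was above every normal one, and the part of this in the results was not tested.

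**Figure D1:**
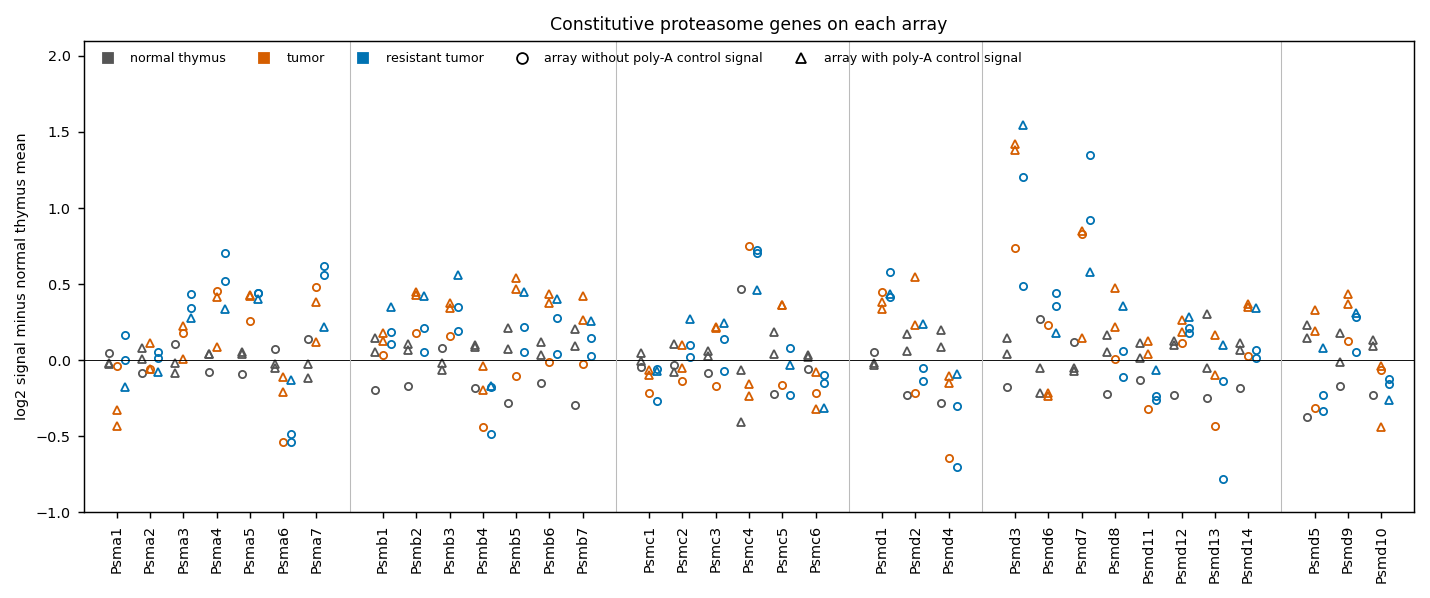
Log2 signal of each tested constitutive proteasome gene on each array, minus the mean of the 3 normal thymus arrays (vertical axis), with genes on the horizontal axis in the order alpha ring, beta ring, ATPases, other base subunits, lid and assembly chaperones. Colour marks the group and shape the presence of poly-A control signal. Most points lie between -0.5 and 0.5, and Psmd3 and Psmd7 reach highest, at 1.55 and 1.35.

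Tumor was first compared with normal thymus. Subunit genes were close to their normal thymus level: 3 of 34 (8.82%) were called, all higher, and none lower. They were Psmd3 (lid), Psmd1 (base) and Psma5 (alpha ring). Among all genes tested, 42.4% were called (limma, Benjamini-Hochberg adjusted p under 0.05), and among genes past a stricter filter at the 75th percentile 45.6%, with the members' count still 3 of 34. The median change of the members was 0.16 on the log2 scale, against 0.049 for all genes tested, and it was 0.074 without normal thymus 1 and 0.11 without tumor 3. Changes ran from -0.30 to 1.18, with an SD over members of 0.29 against 1.26 over all genes. The groups did not overlap for 11 of 34 members, against 55.3% of all genes.

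The 95% interval of the change lay within 1 log2 unit of 0 for 32 of 34 members and for 5930 of 11671 genes. The others were Psmd3 and Psmd7. This bound depends on the scaling: with every array set to the same median, the interval lay within 1 log2 unit for 11 members in tumor, 14 in resistant tumor and 15 between the tumor groups. A change of 1 or more was measured for 1 member, 2.94%, against 23.9% of all genes. The unadjusted p was under 0.05 for 8 of 34 members and for 5876 of 11671 genes. Of the members, 22 had a change above 0 and 12 below it, against 6235 and 5436 of all genes.

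With the set of arrays as a block, 17 of 34 members were called, 14 higher and 3 lower, against 58.7% of all genes. The 3 called without the block were among them. The lower ones were Psma1, Psma6 and Psmd4. Within the arrays without control signal, 1 tumor array against 1 normal array, 3 members were called higher and 1 lower, against 33.1% of all genes, with the spread taken from the whole fit. Within the 2 tumor and 2 normal arrays with it, 9 were called higher and 1 lower, against 54.7%. With the replicate number as a block, 12 were called higher and 3 lower, against 51.1%. Leaving out tumor 1, tumor 2 or resistant tumor 3 raised the count called higher to 7, 6 and 7. When every array was instead set to the same median, no member was called in tumor against normal thymus, where 19.6% of all genes were, and the median of all genes moved up by 0.19.

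**Figure D2:**
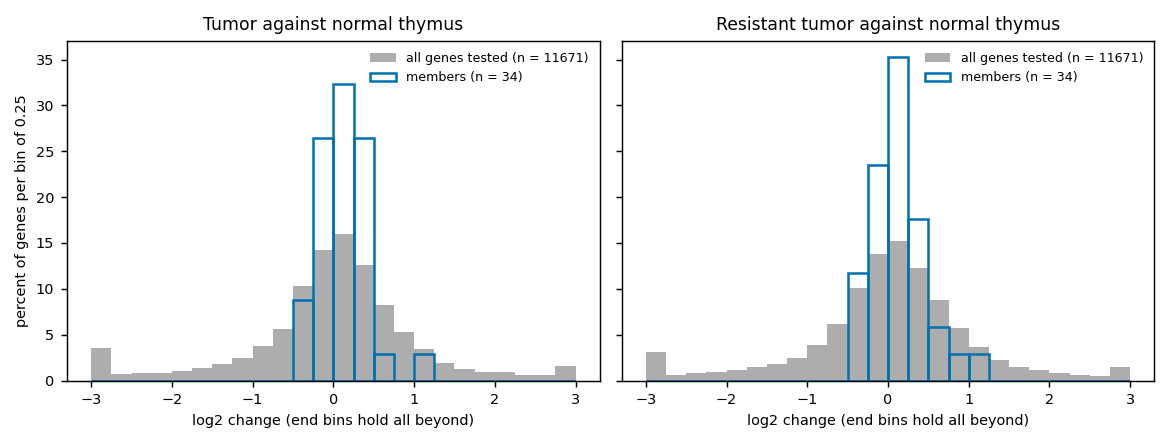
Share of genes (vertical axis, percent) per bin of log2 change (horizontal axis, bins of 0.25) for all 11671 genes tested (grey) and the 34 members (blue outline). Members lie between -0.30 and 1.18 in tumor and between -0.39 and 1.08 in resistant tumor, both against normal thymus.

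Resistant tumor was then set against the same normal thymus arrays, so the comparisons share their controls. In resistant tumor 9 of 34 members (26.5%) were called, 8 higher and 1 lower, against 43.3% of all genes tested. Higher were Psma3, Psma4, Psma5, Psma7, Psmb3, Psmd1, Psmd3 and Psmd7, and lower was Psma6. The median change was 0.14, against 0.063 for all genes, and it was 0.079 without normal thymus 1 and 0.083 without resistant tumor 3. The SD over members was 0.34 against 1.21. Groups did not overlap for 12 of 34 members, against 54.6% of all genes. The set of arrays as a block gave 18 called members, 17 higher and 1 lower, against 58.8% of all genes. Without normal thymus 2 or without resistant tumor 2, 5 members were called higher, and with equal array medians none was, against 17.4% of all genes.

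Resistant tumor was last set against tumor, the comparison of the tumor groups with each other. None of the 34 members was called with limma, against 0.36% of all genes. The unadjusted p was under 0.05 for 2 of 34 members and for 844 of 11671 genes. No alternative called a member, the set block included, which called 1.23% of all genes. Changes ran from -0.25 to 0.51, and the 95% interval lay within 1 log2 unit of 0 for 33 of 34 members (15 with equal array medians). The exception was Psmc4, with a change of 0.51 and an interval of -0.11 to 1.13.

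**Figure D3:**
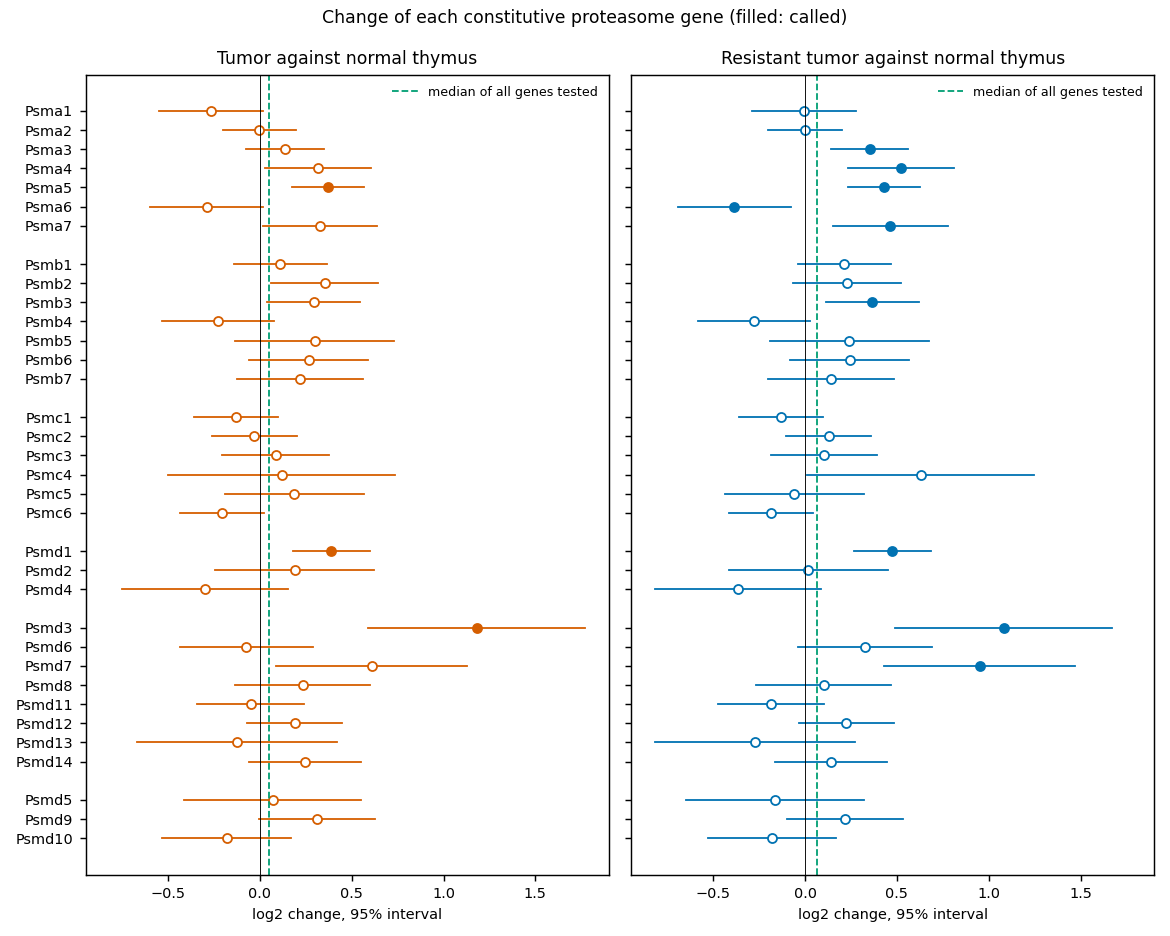
Log2 change of each tested member against normal thymus (horizontal axis) with its 95% interval, by gene (vertical axis, grouped by role), for tumor on the left and resistant tumor on the right. Filled points are called, the dashed line is the median of all genes tested. Psmd3 stands farthest right in both, at 1.18 and 1.08, and most other points lie within 0.5 of 0.

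The alpha ring had the most called members in resistant tumor. Of its 7 tested genes, 1 was called higher in tumor (median change 0.14), against 42.4% of all genes called in either direction. In resistant tumor 4 were called higher and 1 lower (median 0.35), against 43.3% of all genes. Psma5, on chromosome 3, gave signals of 955, 1058 and 1049 in normal thymus, 1218, 1373 and 1367 in tumor, and 1386, 1387 and 1345 in resistant tumor. All 6 tumor arrays were above all 3 normal arrays. The change was 0.37 ± 0.087 (SE, n = 3 and 3) in tumor, 1.29-fold, with an adjusted p of 0.0072, and 0.43 in resistant tumor with an adjusted p of 0.0034. Of its 2 other probe sets past the filter, 1 rose by 0.41 with an adjusted p of 0.0093 over all probe sets, and the dimmest had a change of 0.37 (adjusted p 0.41).

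Psma4 gave 838, 913 and 910 in normal thymus, 1214, 939 and 1183 in tumor, and 1273, 1447 and 1118 in resistant tumor. Tumor 2 lay just above the normal arrays and the groups did not overlap. The change was 0.52 in resistant tumor (adjusted p 0.0092) and 0.32 in tumor (adjusted p 0.073). Psma7 rose by 0.46 (adjusted p 0.022) and Psma3 by 0.35 (adjusted p 0.014) in resistant tumor, with changes of 0.33 and 0.14 in tumor that were not called. These resistant tumor calls were held in 13 and 15 of 20 alternatives, and both ended with quantile normalization, with equal array medians and without normal thymus 2 or resistant tumor 2. Leaving out normal thymus 3 or resistant tumor 1 also ended that of Psma7. Psma1 and Psma2 had changes of -0.27 and 0.00 in tumor, and -0.01 and 0.00 in resistant tumor.

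Psma6, also of the alpha ring, was the 1 member called lower. Its brightest probe set gave 2561, 2396 and 2349 in normal thymus, 1672, 2249 and 2103 in tumor, and 1673, 1735 and 2222 in resistant tumor. Every tumor and resistant tumor array lay below every normal array. In both tumor groups the arrays without control signal were the lowest, while normal thymus 1, also without it, gave the highest value of all. The change was -0.39 in resistant tumor, with an adjusted p of 0.045, and -0.29 in tumor, with an adjusted p of 0.12. The resistant tumor call was held in 10 of 20 alternatives, and leaving out any of 6 arrays (each normal thymus array, tumor 3, resistant tumor 1 or resistant tumor 2) ended it. Its 4 probe sets were all lower in both tumor groups but differed in size, from -0.28 to -1.07 in tumor. The lowest, with 100, 89 and 83 in normal thymus against 51, 46 and 35 in tumor, had an adjusted p of 0.0043 over all probe sets.

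Without a block, no beta ring gene was called in tumor, and 1 of 7 was called higher in resistant tumor, against 42.4% and 43.3% of all genes. With the set of arrays as a block, 5 of 7 were called higher in tumor and 6 of 7 in resistant tumor, none lower. That block called 58.7% and 58.8% of all genes in either direction. The median changes without a block were 0.27 and 0.23. Psmb3, a structural subunit on chromosome 11, gave 1077, 977 and 1009 in normal thymus, 1137, 1324 and 1295 in tumor, and 1164, 1298 and 1504 in resistant tumor. Its change was 0.37 in resistant tumor (adjusted p 0.025) and 0.29 in tumor (adjusted p 0.062). The resistant tumor call was held in 12 of 20 alternatives. Among those that ended it were equal array medians, no intensity trend and the mean over probe sets. Leaving out normal thymus 2, normal thymus 3, resistant tumor 2 or resistant tumor 3 also ended it. The other Psmb3 probe set past the filter changed by 0.39 in tumor and by 0.16 in resistant tumor. Neither change was called (limma, adjusted p 0.45 and 0.79 over all probe sets).

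The 3 subunits with proteolytic sites were not called without a block. Psmb5, the chymotrypsin-like subunit, gave 776, 994 and 1095 in normal thymus, 877, 1305 and 1372 in tumor, and 980, 1099 and 1289 in resistant tumor. In each group the arrays without control signal were the lowest, and the groups overlapped. The change was 0.30 in tumor with a 95% interval of -0.13 to 0.73. Psmb6, the caspase-like subunit, changed by 0.27 (-0.06 to 0.59), and Psmb7, the trypsin-like subunit, by 0.22 (-0.12 to 0.56). With the set of arrays as a block, all 3 were called higher in tumor, with adjusted p of 0.012, 0.018 and 0.042. Psmb4 had the lowest change of the ring, -0.23 in tumor and -0.28 in resistant tumor, not called in either.

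Of the catalytic subunits that can replace these, Psmb8 and Psmb9 had changes of 0.29 and 0.49 in tumor that were not called without a block. Both were called with the set of arrays (adjusted p 0.027 and 0.0016) or the replicate number (adjusted p 0.033 and 0.0034) as a block. Psmb8 rose by 0.36 in resistant tumor (adjusted p 0.035), and Psmb10 had a change of -0.09 in tumor. Psmb11, the subunit of thymic cortical epithelium, gave 497, 598 and 613 in normal thymus and between 0 and 4 on the 6 tumor arrays, at least 32.5-fold lower in tumor and at least 27.4-fold lower in resistant tumor.

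Without a block, the 6 ATPases of the base held no called gene in any comparison. Of all genes, 42.4% were called in tumor, 43.3% in resistant tumor and 0.36% between the tumor groups. Their median change was 0.028 in tumor and 0.023 in resistant tumor. Changes in tumor ran from -0.21 (Psmc6) to 0.19 (Psmc5), and the intervals of all 6 lay within 1 log2 unit of 0. Psmc4 had 2 probe sets that differed across arrays. The brighter one gave 1306, 900 and 712 in normal thymus and 1583, 800 and 847 in tumor, highest on the array without control signal in each group, and 1533, 1554 and 1300 in resistant tumor. The dimmer one gave 613, 642 and 626 in normal thymus, 845, 852 and 844 in tumor, and 919, 889 and 806 in resistant tumor, all above normal thymus. Its change was 0.43 in tumor (adjusted p 0.0044 over all probe sets) and 0.47 in resistant tumor (adjusted p 0.0029), while the brighter one gave 0.12 and 0.63, not called. With the set of arrays as a block, the brighter one was called in resistant tumor (0.42, adjusted p 0.028), as it was with the replicate number (adjusted p 0.0096).

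Among the other base subunits, Psmd1, the large scaffold on chromosome 1, gave 448, 427 and 423 in normal thymus, 590, 564 and 545 in tumor, and 576, 646 and 584 in resistant tumor. The lowest tumor array was above the highest normal array by more than the range within either group. The change was 0.39 ± 0.093 (SE, n = 3 and 3) in tumor, 1.31-fold, with an adjusted p of 0.0079, and 0.47 in resistant tumor, with an adjusted p of 0.0028. Within the arrays without control signal, 1 tumor array against 1 normal array, the change was 0.40 with an adjusted p of 0.053. Psmd2, the other scaffold, changed by 0.19 in tumor with an interval of -0.24 to 0.62. Psmd4, a ubiquitin receptor, had 3 probe sets past the filter with changes of -0.30, -0.50 and -0.40 in tumor. The second of these was called lower (adjusted p 0.046), the gene's brightest was not.

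The lid held the largest changes. Psmd3, which stood alone above 1 log2 unit among the members in tumor, gave 495, 575 and 618 in normal thymus, 935, 1460 and 1497 in tumor, and 786, 1292 and 1637 in resistant tumor. All tumor arrays were above all normal arrays, and in each group the arrays without control signal were the lowest. The change was 1.18 ± 0.26 (SE, n = 3 and 3) in tumor, 2.27-fold, with an adjusted p of 0.0055, and 1.08 in resistant tumor, 2.12-fold, with an adjusted p of 0.0088. Both calls were held in 19 of 20 alternatives and ended only with equal array medians, where the change was 1.37 (adjusted p 0.079) in tumor and 1.02 (adjusted p 0.20) in resistant tumor.

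Psmd7, which pairs with the deubiquitinase subunit Psmd14, gave 167, 147 and 149 in normal thymus, 273, 170 and 278 in tumor, and 291, 393 and 230 in resistant tumor. Its groups did not overlap, and tumor 2 was close to the normal arrays. The change was 0.95 in resistant tumor, 1.93-fold, with an adjusted p of 0.0086, and 0.61 in tumor, with an adjusted p of 0.059. The resistant tumor call was lost within the arrays with control signal. A dimmer probe set of Psmd7 past the filter changed by 0.45 in resistant tumor and by 0.68 in tumor. Neither change was called (limma, adjusted p 0.35 and 0.14 over all probe sets). Psmd14, the deubiquitinase itself, changed by 0.25 in tumor (-0.06 to 0.55) and by 0.14 in resistant tumor.

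The remaining lid genes Psmd6, Psmd8, Psmd11, Psmd12 and Psmd13 had changes of -0.12 to 0.23 in tumor. Psmd6 had the smallest unadjusted p in resistant tumor against tumor, 0.034, with signals of 915, 674 and 663 in tumor and 1063, 1001 and 884 in resistant tumor. Those groups overlapped at tumor 1, and its second probe set gave a change of 0.10 against 0.40 for the first. Psma3 followed with an unadjusted p of 0.047 and a change of 0.21, from 1609, 1425 and 1656 in tumor to 1798, 1919 and 1720 in resistant tumor. The assembly chaperones of the base, Psmd5, Psmd9 and Psmd10, had changes of 0.069, 0.31 and -0.18 in tumor. None was called without a block, against 42.4% of all genes. Psmd10 was the 1 member on the X chromosome, and its change in resistant tumor against tumor was 0.00 (-0.35 to 0.35).

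**Figure D4:**
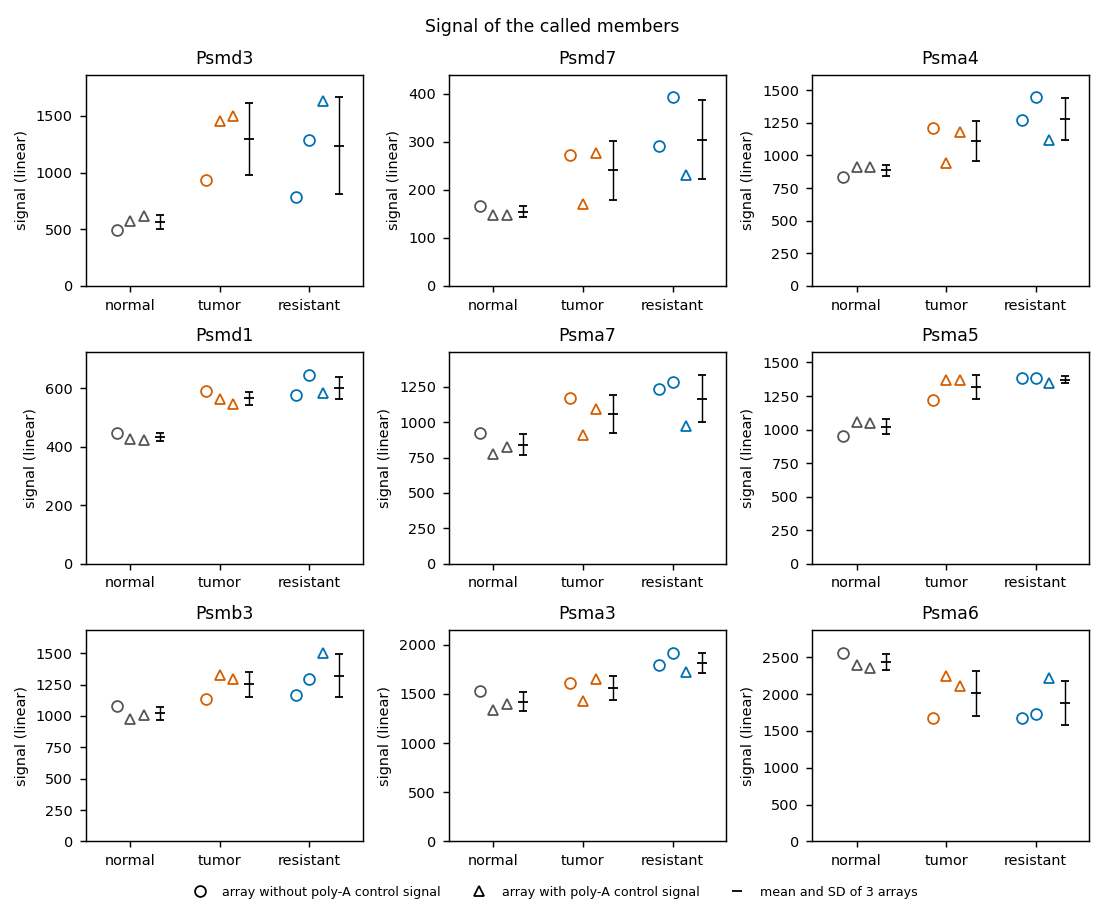
Signal (vertical axis, linear, from 0) of the 9 called members on each array of the 3 groups (horizontal axis), ordered by their change in resistant tumor. Bars give the mean and SD of 3 arrays, and shape marks poly-A control signal. Psmd3 rises from 495 to 618 in normal thymus to between 786 and 1637 on the tumor arrays, and Psma6 is lower on every tumor array.

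Over single probe sets, 63 of the members' 73 passed the filter, and 17 genes had several. Of the 63, 6 were called higher and 3 lower in tumor, against 31.6% of all probe sets past the filter, and 9 higher and 2 lower in resistant tumor, against 32.1%. None was called in resistant tumor against tumor.

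Genes that act with these subunits were taken from lists of 36 genes, of which 24 were tested. In tumor 5 were called higher and 2 lower, against 42.4% of all genes called in either direction. In resistant tumor 5 were called higher and 3 lower, against 43.3%, with 0 in resistant tumor against tumor, against 0.36%. None of the called genes changed direction under the other scalings, and with equal array medians none of the 7 and 8 was called. Quantile normalization ended the call of Usp14 in tumor and that of Ubqln2 in resistant tumor. With the set of arrays as a block, all 7 and 8 were still called. That block also called Psmg3, Psme3, Psme4, Vcp, Rad23b and Ubqln1 higher in tumor. In resistant tumor it also called Psmg1, Psmg3, Psme3 and Vcp higher. It called 58.7% and 58.8% of all genes in either direction. Of the chaperones that assemble the core, 2 of 5 rose in tumor without a block: Psmg4 by 0.89 (adjusted p 0.0021) and Psmg2 by 0.46 (adjusted p 0.027). Pomp, another assembly factor of the core, had a change of -0.11. Of 4 tested activators and inhibitors, 1 was called higher in tumor without a block. This was Psme1, a subunit of an interferon-induced activator cap, by 0.73 (adjusted p 0.00043), with 928, 1011 and 1108 in normal thymus against 1495, 1729 and 1845 in tumor. These groups did not overlap.

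Usp14, a deubiquitinase of the regulatory particle, rose by 0.54 (adjusted p 0.047), and Uchl5 had a change of -0.09. Of the substrate shuttle factors, Ubqln4 rose by 0.49 and Ubqln2 fell by 0.50, with 2 of 4 not called without a block. Of 7 tested regulators of proteasome gene expression, 1 was called lower in tumor and 2 in resistant tumor, and none higher, without a block. With the set of arrays as a block, Vcp was called higher, by 0.26 in tumor and 0.29 in resistant tumor (limma, adjusted p 0.041 and 0.031). Ngly1, the deglycosylase that activates Nfe2l1, fell by 0.53 in tumor and by 0.73 in resistant tumor. Nfe2l1 itself had a change of -0.25 in tumor, not called, and fell by 0.49 in resistant tumor (adjusted p 0.022).

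Markers of the cell types in the tissue were measured beside the subunits. All 10 thymic epithelial markers fell in tumor, with a summed signal of 9875 to 10860 in normal thymus, 707 to 1246 in tumor and 1239 to 1365 in resistant tumor. Of 13 thymocyte and T cell markers, 8 fell and 1 rose in tumor, with sums of 22245 to 24210, 15975 to 17083 and 14069 to 17044. Of 9 fibroblast and mural markers, 5 rose, with sums of 1271 to 1358, 2772 to 6079 and 3481 to 7828.

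Of 10 macrophage and dendritic cell markers 4 fell in tumor, with sums from 4774 to 5804 in normal thymus and from 1485 to 2331 in tumor. All 4 tested B cell markers fell, 4 of 6 endothelial markers rose and 1 fell, and the 1 tested erythroid marker fell. Proliferation genes had 2 of 10 called higher in tumor, with sums of 12568 to 13726 in normal thymus and 13040 to 13832 in tumor. The part of these markers in the subunit results was not tested. In such bulk tissue, fewer cells of a type and less RNA per cell cannot be told apart.

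The members called in tumor were then placed among their neighbours, with gene order from RefSeq's table of assembly GRCm38.p6. This was done after their values were seen. Psmd3 lies on chromosome 11 beside Csf3, Med24 and Thra, in that order among tested genes. All 4 were called higher in both tumor groups, Csf3 from signals near background. Of all 11671 genes tested, 2714 were called higher in tumor and 2696 in resistant tumor. Csf3, the granulocyte growth factor, gave 5, 3 and 2 in normal thymus, 16, 21 and 18 in tumor, and 12, 45 and 45 in resistant tumor. It was under the array median on all 3 normal arrays, on tumor 1 and on resistant tumor 1, so its change has only a bound, at least 1.47-fold higher in resistant tumor, and none above 1 in tumor. Med24, a Mediator subunit, gave 191, 239 and 223 in normal thymus, 724, 941 and 893 in tumor, and 429, 955 and 1006 in resistant tumor. Thra, the thyroid hormone receptor alpha, gave 95, 90 and 97, then 424, 462 and 387, then 304, 421 and 441.

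No tumor array overlapped the normal arrays in any of the 4 genes. Over all genes tested, groups did not overlap for 55.3% in tumor and 54.6% in resistant tumor. The changes in tumor were 1.18 for Psmd3, 1.97 for Med24 and 2.17 for Thra, and all 3 probe sets of Thra past the filter rose. The Med24 and Thra calls in tumor were held in 20 of 20 alternatives and that of Csf3 in 17 of the 19 that tested it. Nr1d1, next to Thra, fell by 1.85, a call held in 13 of the 19 alternatives that tested it. Zpbp2, the nearest tested gene on the other side of Psmd3, was not called, with 41, 20 and 21 in normal thymus and 25, 13 and 15 in tumor, and Ikzf3 beyond it fell by 1.42. Farther along that side, Pgap3 was called higher in tumor, by 0.84 (limma, adjusted p 0.020), but not in resistant tumor. Its tumor call was held in 14 of the 19 alternatives that tested it. Mien1, Pnmt and Tcap on that side, and Msl1 and Casc3 beyond Nr1d1, were not called in tumor. Between Zpbp2 and Psmd3 the table lists 5 genes that were not tested (Ormdl3, Lrrc3c, Gsdma3, Gsdma2 and Gsdma).

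For comparison, Itm2c and Armc9, the nearest tested neighbours of Psmd1, had changes of 0.11 and 0.24 in tumor, not called. Farther out on the side of Armc9, Ncl was called higher in tumor, by 0.50 (limma, adjusted p 0.0012). On the side of Itm2c, A630001G21Rik, Sp100 and Sp110 were called lower, with changes of -0.64, -2.92 and -1.29. The others of the 6 tested genes on each side were not called in tumor.

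**Figure D5:**
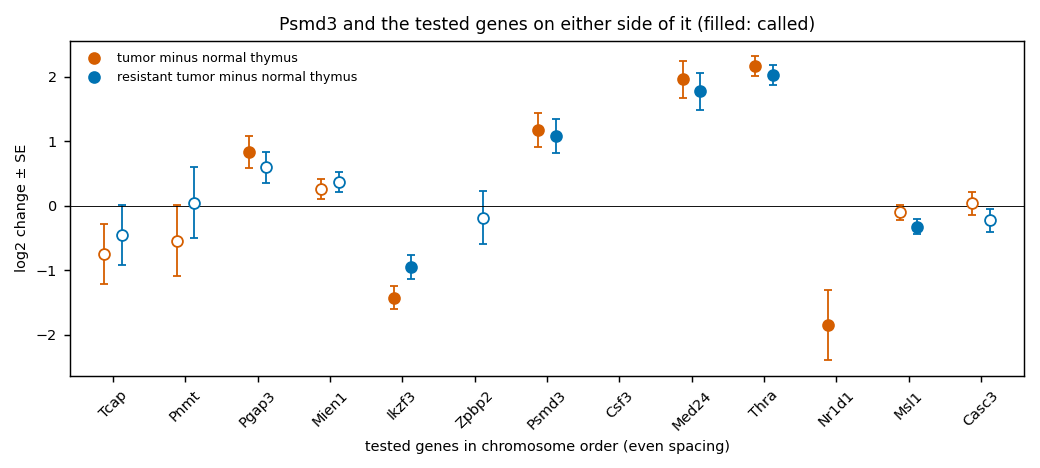
Log2 change with its SE (vertical axis) of Psmd3 and the 6 tested genes on each side of it, in chromosome order with even spacing (horizontal axis), for tumor and resistant tumor against normal thymus. Filled points are called, and no point is drawn where a group is under the array median on all 3 arrays, as for Csf3. Psmd3, Med24 and Thra lie between 1.08 and 2.17 in both tumor groups.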

How the data were processed

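Values are linear intensity signals, 1 per probe set and array, which the authors computed by MAS5, as the submitters' processing notes record. The sources used here give no version, scaling target or detection calls for it. The deposited intensity values had a trimmed mean, without 2% at each end, of 100.03 on every array.

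Of 45101 probe sets, 34945 had 1 symbol, 932 several and 9160 none, and 64 were controls. Values under 1 were set to 1 before log2. Probe sets were kept when at least 3 of 9 arrays reached their own median (20917), and the brightest stood for its gene (11671). Limma 3.58.1 under R 4.3.3 fitted a mean per group to all 9 arrays, with an intensity trend, and was tested on simulated data. Tests were two-sided, with Benjamini-Hochberg adjustment over the genes tested and calls at an adjusted p under 0.05. Values of single probe sets come from another fit, over all those with 1 symbol. A gene under the median on all 3 arrays of a group has only a bound there, given as "at least": the brighter group's mean log2 signal against the mean of the higher of the gene's signal and the array median.

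The members, lists and tests were chosen with earlier results of these data known. By rule, every member was accounted for, per-array signals were given for called members with the largest changes (up to 6 in each direction in tumor, up to 4 in resistant tumor against tumor, with the 2 smallest unadjusted p where none was called), and up to 3 called genes were named per list. Further genes were named after their values were seen.

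The labels give no pairing. Deviations from the group means of same-numbered normal thymus and tumor arrays correlated at 0.654, 0.371 and 0.411, and the numbers coincide there with the control signal sets. Arrays of unlike number with control signal correlated at 0.449 and 0.362, so a pairing by number cannot be told apart from the sets. Replicate numbers do not pair resistant tumor, where number 2 gave -0.337 and -0.301. In tumor 1 the order of the control rows differed, so these were sorted by name. Control rows were not among the genes tested. The poly-A control rows did define the sets of arrays used as a block and for the fits within a set, those of tumor 1 after sorting. The alternatives were quantile normalization, equal array medians, an offset of 50, no filter, a 75th percentile filter, the mean over probe sets, no intensity trend, both blocks, both sets of arrays and each array left out. Plots were made in Python 3.11.15 with matplotlib 3.10.9.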

Additional observations from a re-analysis of the deposited data

How the results depend on the processing

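No called member changed sign under any of the 20 alternatives, and no alternative called a member in resistant tumor against tumor. Members called higher in tumor numbered 3 and with equal array medians 0, with the mean over probe sets 5, with the control signal set as a block 14, and within the arrays with control signal 9. Leaving out 1 array gave 3 to 7. Members called lower numbered 0, against 1 with quantile normalization and within either set of arrays, 3 with the mean over probe sets and with the set block, and 0 to 1 leaving out 1 array. In resistant tumor, 8 were called higher, against 0 with equal array medians, 17 with the set block and 5 to 9 leaving out 1 array. There 1 was called lower, against 0 with equal array medians, no filter, no intensity trend or within the arrays with control signal, 2 with quantile normalization or the mean over probe sets, and 0 to 1 leaving out 1 array.

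With the replicate number as a block, members called higher and lower were 12 and 3 in tumor, 11 and 3 in resistant tumor, and 0 between the tumor groups, where the numbers do not pair the arrays.

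The median change of members in tumor was 0.16, against 0.35 with equal array medians and 0.074 to 0.24 leaving out 1 array. In resistant tumor it was 0.14, against 0.23 with the set block and 0.24 within the arrays with control signal. Between the tumor groups it was -0.0013, against -0.25 with equal array medians, 0.11 within the arrays without control signal and -0.079 to 0.059 leaving out 1 array. Equal medians moved the median of all genes by 0.19, -0.06 and -0.25 in these comparisons.

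Genes called among all tested fell from 4943 to 2287 in tumor and from 5049 to 2034 in resistant tumor with equal array medians. Between the tumor groups there were 42, against 18 with equal medians, 22 with no filter, 23 with the stricter filter, 27 with the mean over probe sets, 143 and 92 with the set and replicate blocks, 164 within the arrays with control signal and 8 to 70 leaving out 1 array. With 3 arrays a group, the number of arrays limits every value. The causes of these differences were not tested.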

Other observations

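Psma5, the alpha subunit called higher in both tumor groups, also has raised genes beside it, read after its values were seen. On 1 side the next tested genes on chromosome 3 were Sort1, Psrc1, Celsr2 and Sars, all called higher in tumor, the first 3 with changes of 1.46, 1.06 and 1.21. Beyond them Tmem167b was called lower, by 0.48 in tumor and 0.65 in resistant tumor, and Taf13 was not called. Of all 11671 genes tested, 2714 were called higher in tumor and 2229 lower. Sort1, a sorting receptor, gave 95, 100 and 90 in normal thymus against 230, 321 and 240 in tumor. Psrc1, a mitotic spindle protein, gave 172, 174 and 180 against 382, 397 and 325, and 561, 513 and 501 in resistant tumor. The change of Psma5 itself was 0.37. On its other side the nearest tested gene, Atxn7l2, had a change of -0.22, not called, and Cyb561d1 fell by 0.79, a call held in 11 of the 19 alternatives that tested it. Farther along that side Gnai3 had a change of 0.14, not called, and Ampd2 and Gstm4 rose by 0.89 (limma, adjusted p 0.00017) and 1.10 (adjusted p 0.0096) in tumor and were called higher in resistant tumor too.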
